A study of Mus musculus with 17 samples.

Results

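Multipotent adult spermatogonial-derived stem cells (MASCs) were compared with the spermatogonial stem and progenitor cells (SSCs) from which such lines arise during long-term culture, by RNA-seq of cultured mouse lines. The comparison took the 6 MASC lines and the 4 SSC lines, 10 of the 17 samples of the series, by the cell type in the sample labels, and each line was 1 replicate. The other samples were 2 embryonic stem cell (ESC) lines (Oct4-GFP and 129mix), which entered the fit only to estimate the spread, 1 sample of 129mix mouse embryonic fibroblasts (MEFs), used as a reference for feeder cells, and iPS and haematopoietic cells, which were not used. MASC lines 1 and 2 carried the Oct4-GFP reporter, lines 3 and 4 were of the 129mix strain and lines 5 and 6 of the Gt(ROSA26)Sor-lacZ strain. SSC lines 1 and 2 carried Oct4-GFP, line 3 was C57Bl/6J and line 4 was 129mix. All 10 lines came from testes of adult mice and grew on MEF feeder cells. The SSCs were kept in a StemPro-34 medium with insulin, GDNF, bFGF, EGF and a low amount of serum, and were freed of feeders by a short plating on gelatin before collection. The MASC lines were started from picked colonies, subcloned, and kept in ESC medium with serum replacement and leukaemia inhibitory factor (LIF). In bulk RNA, fewer cells of a type and less RNA per cell cannot be told apart. Each medium was used for 1 group, so medium and cell type cannot be told apart in any difference below, and neither can the time spent in culture. Whether each MASC line came from a separate conversion was not stated in the sources used here, so the p-values measure only the spread between these lines.

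SSCs are the cells of the testis that renew themselves and give rise to sperm. They depend on GDNF, a growth factor signalling through the receptor Ret and its partner Gfra1, and they already transcribe many genes that act later in meiosis and in the piRNA pathway, which silences transposons with small RNAs. ESCs, which MASCs resemble in culture, depend on a network of transcription factors around Pou5f1, Sox2 and Nanog and on signals such as LIF and Nodal.

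Each value is the FPKM of 1 RefSeq transcript, in fragments per kilobase of transcript scaled to the library. The paper states that upper-quartile and GC normalization were applied. Tests used log2(FPKM + 1), a scale that understates the change of low transcripts. A transcript was called when limma gave a Benjamini-Hochberg adjusted p under 0.05 over all 32661 transcripts and the log2 difference between the group means, MASC minus SSC, was at least 1. For gene lists, a gene was represented by whichever of its transcripts had the largest mean FPKM in the 10 lines together. The files hold no read counts. At 1 FPKM a transcript was covered by 1.54 to 2.78 reads per base in the MASC lines and by 1.94 to 2.87 in the SSC lines, and these ranges overlapped (exact permutation test, two-sided, p = 0.562), so values far below 1 FPKM rest on few reads in both groups.

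Markers separated the lines as labelled. The summed FPKM of 10 spermatogonial markers was 829.4 to 1238 in the SSC lines and 268 to 317 in the MASC lines, and the sum of 10 pluripotency markers was 68.4 to 178 in the SSC lines and 2941 to 4630 in the MASC lines. SSC line 1 stood apart at the upper end of that range. Pou5f1, the transcription factor at the centre of the pluripotency network, was at 94.5 FPKM in SSC line 1 and at 2.1, 1.36 and 5.42 in SSC lines 2, 3 and 4. The lowest, median and highest MASC lines were at 693, 828 and 1007. Transcripts of 16 fibroblast markers were present in every line and differed widely within both groups. Their sum was 6946 in the MEF sample, where Col1a1 is listed at 0 because the quantification was not completed for it (status HIDATA), 704, 71.8, 1720.0 and 233 in SSC lines 1 to 4, and 1887, 285, 77.0, 58.7, 46.8 and 119 in MASC lines 1 to 6. Of these markers 0 rose and 1, Twist1, fell. The 8 markers of post-meiotic germ cells summed to at most 4.41 FPKM in any SSC line and 0.809 in any MASC line. The 8 macrophage and blood markers summed to 228 in SSC line 2 and to 27.5 or less in the other SSC lines. In the MASC lines that sum was 14.8 to 112, with lines 3, 4 and 5 at 96.6 or more, and in the MEF sample it was 3663. Counts below are also given without SSC line 1, or without MASC line 1, SSC line 1 and SSC line 3 together (the 3 lines highest in fibroblast transcripts), where leaving them out moved a count by over 1.5 times.

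**Figure D1:**
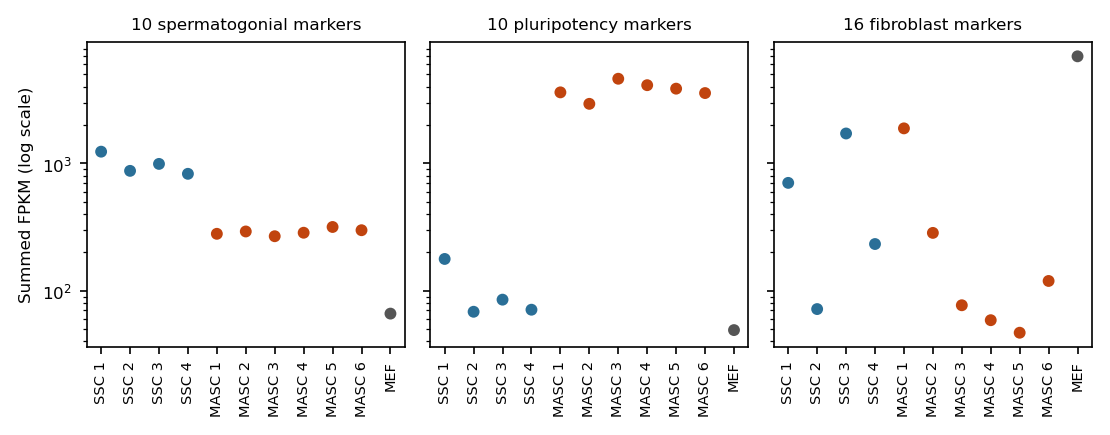
Summed FPKM (log scale) of 10 spermatogonial, 10 pluripotency and 16 fibroblast markers in each SSC line (blue), each MASC line (orange) and the MEF sample (grey); each point is 1 sample. The first and second sums separate the SSC from the MASC lines, whereas the fibroblast sum ranges from 71.8 to 1720 in the SSC lines and from 46.8 to 1887 in the MASC lines.

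In total 1972 transcripts were higher (6.04% of those tested) and 3137 were lower (9.6%) in the MASC lines. They belonged to 1729 and 2800 gene symbols. Of the 1972 and 3137 transcripts, 1732 higher and 2749 lower ones had values that did not overlap between the 6 MASC and 4 SSC lines. Over all transcripts, called or not, 9.92% lay above and 15.4% lay below without overlap. Differences of at least 2 on the log2 scale were called higher for 565 (1.73%) and lower for 697 (2.13%). The balance between the directions depended on the scaling. Higher transcripts were 38.6% of all calls with the FPKM as deposited and 58.9% when each line was centred on the median of its expressed transcripts, because the median log2 difference of genes with a mean FPKM of at least 1 was -0.15 as deposited and moved by 0.26 with centring. Quantile normalization moved that median by 0.12 and gave 49.1%. Read against this shift, a list whose members all lie near -0.15 lies with the general run of genes. At 1 transcript per gene, 6.6% of the 23891 genes were called higher and 10.7% lower, and among the 13293 genes with a mean FPKM of at least 1 these shares were 11.6% and 18.1%. The MASC lines also had fewer transcripts at or above 1 FPKM, with 14841 to 15412 against 15718 to 16272 in the SSC lines. This difference reached the smallest p that the 210 ways of dividing the lines allow (exact permutation test, two-sided, p = 0.00476, 0.00714 after adjustment over 6 measures). The 100 most abundant transcripts took 32.2 to 38.3% of the summed FPKM in the MASC lines and 21.2 to 30.9% in the SSC lines, with the same p.

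**Figure D2:**
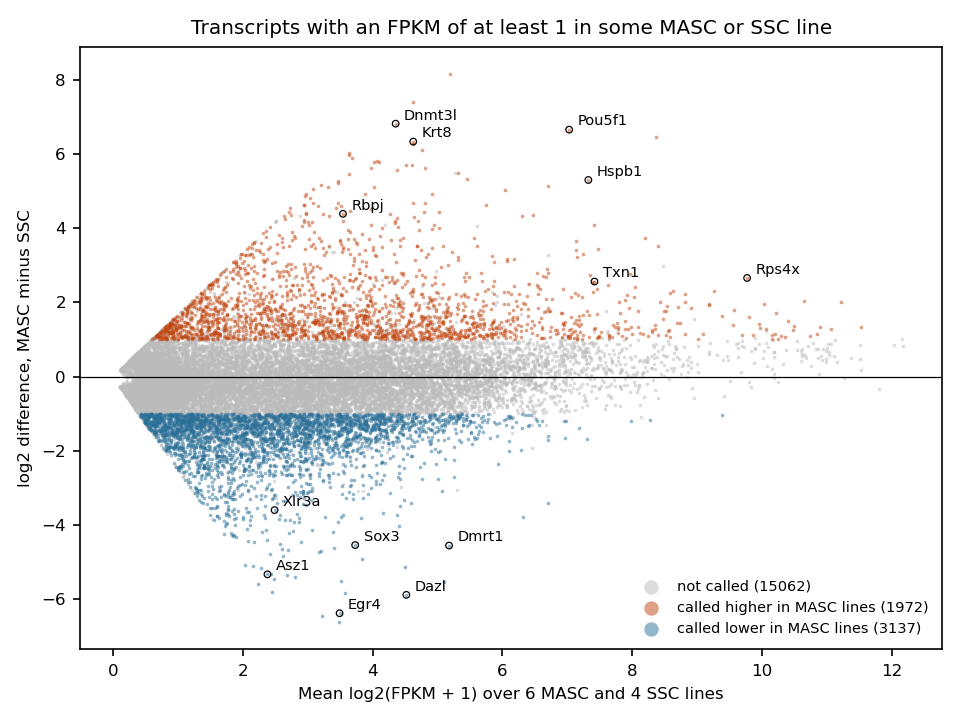
log2 difference (MASC minus SSC) of each transcript with an FPKM of at least 1 in some MASC or SSC line, against its mean log2(FPKM + 1) over the 10 lines; orange points were called higher (1972), blue points lower (3137) and grey points were not called. Among the circled genes, Pou5f1 and Hspb1 combine a high level with a large increase, and Dazl and Dmrt1 lie at the abundant end of the genes with a large decrease.

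The germline lists fell together. Of 26 piRNA pathway genes, 18 were lower and 1 was higher. Of 36 genes of the meiotic chromosome axis and recombination, 19 were lower and 1 was higher. Of 21 germ cell RNA-binding proteins, 13 were lower and 0 were higher. The lists share some members, such as Piwil2 and Ddx4. Their median log2 differences were -2.69, -1.32 and -1.74, beside -0.005 over all genes at 1 transcript each. Without the 3 lines richest in fibroblast transcripts, 16, 16 and 11 members were lower.

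**Figure D3:**
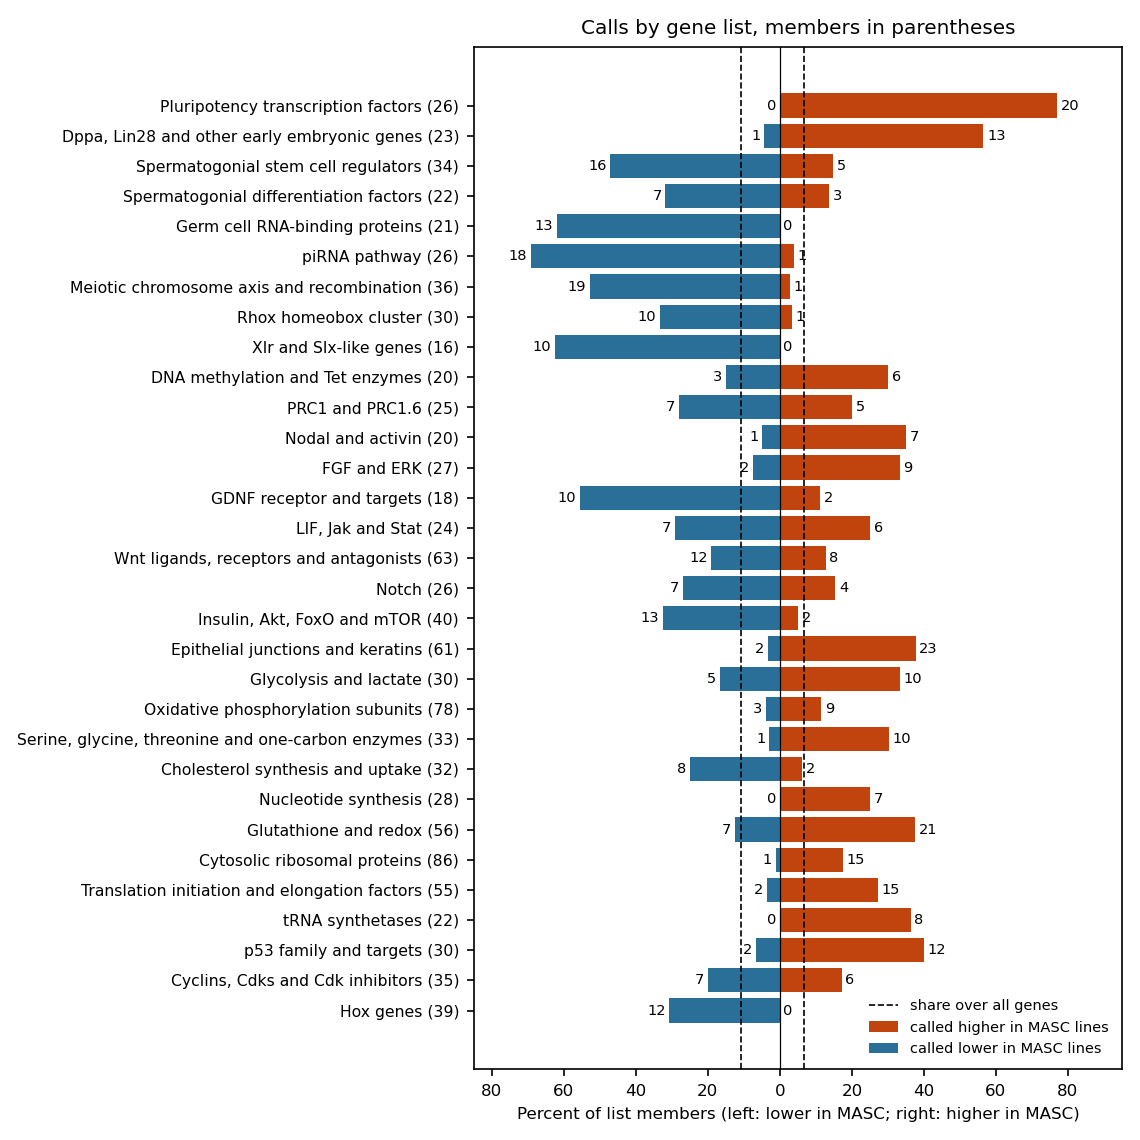
Percent of the members of each gene list called lower (left, blue) and higher (right, orange) in the MASC lines, with the number called at the end of each bar and the number of members in parentheses; dashed lines mark the shares over all genes at 1 transcript per gene, 10.7% lower and 6.6% higher. Germline, GDNF, insulin and Hox lists extend to the left, and pluripotency, epithelial, redox, translation and p53 lists extend to the right.

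In the piRNA pathway the decreases spanned its successive steps. Asz1, a mitochondrial outer membrane protein that holds the germ granule in place, was at 43.9, 36.6, 42.4 and 70.0 FPKM in SSC lines 1 to 4, and the highest MASC line was at 0.344 (log2 difference -5.33 ± 0.16 SE, adjusted p = 3.6e-08). Tdrd1, a Tudor protein that binds the Piwi proteins through methylated arginines, was at 31.1, 23.7, 35.3 and 44.3 in the SSC lines and near 0 in every MASC line (-5.08 ± 0.17, adjusted p = 8.3e-08). Summed over its 4 transcripts, Tdrd1 was still at 0.877 or less in the MASC lines and at 24.8 or more in the SSC lines. The helicase Mov10l1, which feeds precursor RNA into piRNA production, ranged more widely among the SSC lines, at 112, 15.1, 85.1 and 30.3, but all MASC lines lay between 1.07 and 2.37 (-4.14 ± 0.50, adjusted p = 0.0002). Tdrd5, Gpat2, Tdrkh, Stk31, Tdrd7 and Mael fell by 4.21, 3.92, 3.92, 3.75, 3.69 and 3.42 on the log2 scale. The Piwi protein Piwil1 fell by 1.90, and the values of the other Piwi genes are not given here. Tdrd9, another helicase of the pathway, was not called (-1.02 ± 0.55, adjusted p = 0.2), since SSC line 1 was at 9.4 FPKM and the other 3 SSC lines at 0.265 to 0.311. Mybl1, the transcription factor that switches on pachytene piRNA genes, was the 1 member called higher, at a log2 difference of 1.05, and its groups overlapped. Its call was lost without MASC line 3, 4, 5 or 6, without SSC line 1, 3 or 4, and with the replicate number or strain as a block.

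Among meiotic genes, those of the axis and the synaptonemal complex fell furthest. The cohesin subunit Smc1b was at 38.4, 45.1, 48.6 and 12 FPKM in the SSC lines, and at 0.590, 1.45 and 2.19 in the lowest, median and highest MASC lines (log2 difference -3.86 ± 0.40, adjusted p = 7.2e-05). Sycp2, a component of the lateral element, was at 22.6, 15.9, 25.3 and 13.7 in the SSC lines and at 0.586 or less in the MASC lines (-3.85 ± 0.18, adjusted p = 8.2e-07). Neither gene overlapped between the groups. The cohesin subunits Rec8, Stag3 and Rad21l fell by 2.78, 2.80 and 3.27, and the synaptonemal proteins Syce3, Tex12, Sycp1 and Syce1 by 3.79, 2.92, 2.74 and 2.38. Prdm9, the methyltransferase that places recombination hotspots, was low in both groups (1.32 to 4.01 FPKM in SSC, 0.378 to 0.631 in MASC) and its call rests on this narrow range. Sycp3, the partner of Sycp2, and Hormad1, an axis protein, were not called and overlapped between the groups (-1.41 ± 0.69 and 0.27 ± 0.67). Hsf2bp, a protein that works with Brca2 in meiotic recombination, rose. It was at 5.04, 1.32, 1.89 and 0.404 in the SSC lines and at 8.02 to 15 in the MASC lines (2.19 ± 0.36, adjusted p = 0.0013).

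Promoter windows of these genes held some letters more often than windows in general. Windows of 300 bases, from 250 before to 50 after each transcript start in the files, were read from the mouse genome build mm9 for 20697 genes. The letters CACGTG, an E-box bound by Myc, Max and Mga proteins among others, are palindromic, so 1 search covers both strands. They stood in 11 of 25 piRNA pathway windows (44%), in 8.11% of all windows and in 10.2% of windows of genes with a mean FPKM of at least 1. They were not confined to the piRNA list, with 8 of 35 meiotic windows (22.9%) and 6 of 20 windows of germ cell RNA-binding proteins (30%). Among the 17 piRNA genes called lower that had a window, 8 held them, and among the 8 that were not called or rose, 3 did (Tdrd9, Fkbp6 and Pnldc1). The same letters were in 11.4% of the windows of all genes called lower and in 9.53% of those called higher. The letters GCGGGAA, part of the sequence that E2F proteins bind, were searched on both strands and stood in 12 of 35 meiotic windows (34.3%), in 6.22% of all windows and in 8.83% of windows of genes with a mean FPKM of at least 1. In the piRNA list 2 of 25 windows held them (8%), and among germ cell RNA-binding proteins 2 of 20 (10%). The letters ATGCAAAT, an octamer bound by POU factors, were also searched on both strands and stood in 0 of the 25 piRNA and 0 of the 35 meiotic windows and in 1.76% of all windows. Of the 12 meiotic genes with the E2F letters, 7 were lower, 1 (Hsf2bp) was higher and 4 were not called. A match is a description of the letters and not a site shown to be bound, and these shares were not tested. The 8 piRNA windows with the E-box letters are shown 5′ to 3′ on the strand of the gene, 60 bases each, with each E-box in capitals. Their positions in mm9 are chr19:56900639-56900698 for Tdrd1, chr15:88813151-88813210 for Mov10l1, chr6:49345456-49345515 for Stk31, chr1:168169066-168169125 for Mael, chr13:113442519-113442578 for Ddx4, chr11:59601160-59601219 for Pld6, chr5:129241940-129241999 for Piwil1 and chr14:57021474-57021533 for Rnf17. Tdrd1, Mov10l1, Stk31, Piwil1 and Rnf17 are on the plus strand and the others on the minus strand, and each stretch lies upstream of the first transcribed base.
Tdrd1: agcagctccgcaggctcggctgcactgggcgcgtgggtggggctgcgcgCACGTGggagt
Mov10l1: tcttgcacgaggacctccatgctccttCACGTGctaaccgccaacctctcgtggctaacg
Stk31: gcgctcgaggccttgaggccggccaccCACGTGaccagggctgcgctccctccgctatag
Mael: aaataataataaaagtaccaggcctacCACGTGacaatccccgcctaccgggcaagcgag
Ddx4: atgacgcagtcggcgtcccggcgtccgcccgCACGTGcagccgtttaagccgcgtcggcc
Pld6: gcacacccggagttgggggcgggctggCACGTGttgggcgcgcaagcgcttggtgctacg
Piwil1: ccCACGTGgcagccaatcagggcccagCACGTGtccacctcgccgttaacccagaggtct
Rnf17: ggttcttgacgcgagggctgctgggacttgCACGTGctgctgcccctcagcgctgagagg

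The first letter of the E-box was 11 bases before the transcript start in Tdrd1, 29 in Ddx4, 30 in Rnf17 and 33 in Pld6, and 120, 154, 223 and 246 before it in Stk31, Piwil1, Mael and Mov10l1. Piwil1 held a second E-box further upstream in the stretch shown. Among the meiotic genes called lower with the E2F letters, 3 are shown in the same way, with the letters or their reverse complement in capitals, from chr15:84962402-84962461 for Smc1b, chrX:98255168-98255227 for Tex11 and chr9:50369485-50369544 for Tex12, all on the minus strand.
Smc1b: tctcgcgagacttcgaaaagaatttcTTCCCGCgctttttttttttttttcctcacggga
Tex11: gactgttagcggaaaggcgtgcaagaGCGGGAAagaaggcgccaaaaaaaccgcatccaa
Tex12: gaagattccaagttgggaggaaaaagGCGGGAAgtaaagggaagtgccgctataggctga

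The RNA-binding proteins of early germ cells followed. Dazl, which promotes the translation of germ cell messages, was at 202, 405, 275 and 216 FPKM in the SSC lines and at 0.995, 4.09 and 7.38 in the lowest, median and highest MASC lines (log2 difference -5.88 ± 0.43, adjusted p = 8.7e-06). Nanos3, which protects primordial germ cells from death, was at 72.3, 10.9, 66.2 and 84.2 in the SSC lines, so that line 2 lay well below the others, and at 0.742 to 1.45 in the MASC lines (-4.46 ± 0.50, adjusted p = 0.00012). Rbm46, another such protein, was at 11.5 to 15.3 in the SSC lines and at 0.498 or less in the MASC lines (adjusted p = 3.4e-08). Ddx25, Cpeb1, Boll and Dnd1 fell by 3.29, 3.18, 3.07 and 2.60.

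Of 34 regulators of SSC self-renewal and surface markers of SSCs, 16 were lower and 5 higher, with a median log2 difference of -1.12. The shares were 47.1% lower and 14.7% higher, beside 18.1% and 11.6% of expressed genes. Ret, the signalling receptor for GDNF, was at 41.7, 78.9, 21.1 and 30.1 FPKM in the SSC lines and at 0.252 to 0.657 in the MASC lines (-4.78 ± 0.29, adjusted p = 3.4e-06). Its co-receptor Gfra1 was at 18.2, 22.2, 9.04 and 31.7 in the SSC lines and at 1.27 or less in the MASC lines (-3.66 ± 0.32, adjusted p = 2.8e-05). Gfra1 was also at 35.5 in the MEF sample, above every SSC line. Among the transcription factors of this list, Glis3, Foxc2, Id4, Bcl6b and Foxo1 fell by 4.14, 4.00, 2.42, 2.05 and 1.81. Nxf2, an X-linked RNA export factor, was at 98.4, 27.9, 102 and 45.6 in the SSC lines and at 0.394 or less in the MASC lines (-5.80 ± 0.34, adjusted p = 2.4e-06). Etv5, a GDNF and FGF target, was at 17.2, 123, 45.0 and 11.4 in the SSC lines and at 81.1, 119.9 and 128 in the lowest, median and highest MASC lines. Its groups overlapped, and its call (1.72 ± 0.55, adjusted p = 0.04) was lost in 15 of 22 alternatives. The number of higher members was 5 in the fit over all lines, 3 with quantile normalization and 3 without MASC lines 2, 3, 4, 5 or 6 or SSC lines 1 or 3, 2 without SSC line 4 and 1 without the 3 lines richest in fibroblast transcripts. The zinc-finger factor Sall4 and the RNA-binding protein Lin28a, which act in SSCs and in ESCs, were not called, at 22 to 63.1 and 36.9 to 190 FPKM in the SSC lines and at 47.5 to 68.0 and 76.4 to 119 in the MASC lines.

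Of 22 factors of spermatogonial differentiation, 7 were lower (31.8%, beside 10.7% of all and 18.1% of expressed genes). The 3 higher ones were 13.6%, beside 6.6% and 11.6%. Dmrt1, which holds back meiosis in spermatogonia, was at 231, 223, 224 and 287 FPKM in the SSC lines and at 4.07, 8.38 and 21.7 in the lowest, median and highest MASC lines (log2 difference -4.56 ± 0.39, adjusted p = 2.2e-05). Sohlh2, a helix-loop-helix factor of early differentiation, was at 87.1, 116, 128 and 67.2 in the SSC lines and at 5.83 to 7.00 in the MASC lines (-3.73 ± 0.17, adjusted p = 6.4e-07). The retinoic acid receptor Rarg and the retinoid-binding protein Crabp2 rose by 2.27 and 1.81. Kit and Stra8, which respond to retinoic acid in differentiating spermatogonia, were not called (-1.30 ± 0.53 and -1.93 ± 0.91), and Stra8 spread from 0.835 to 36.6 among the MASC lines.

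Germ cell families on the X chromosome had lower members in differing shares. Of 30 Rhox homeobox genes, 10 were lower and 1 higher. Rhox13, found in differentiating germ cells, was at 31.2, 61.3, 44.2 and 33.9 FPKM in the SSC lines and at 0.240 to 1.11 in the MASC lines (log2 difference -4.66 ± 0.27, adjusted p = 2.2e-06), and Rhox10 fell by 3.72. Rhox6, a gene of the placenta, rose from 0.303 to 2.93 FPKM in the SSC lines to 5.96 to 24.6 in the MASC lines (2.43 ± 0.57, adjusted p = 0.009), a call that was lost without the 3 lines. Of the lower Rhox genes 8 were Rhox2 copies. Only 4 Rhox genes were lower without SSC line 1, 4 without SSC line 3 and 2 without the 3 lines richest in fibroblast transcripts, and 2 with the replicate number or the strain as a block. Of 16 Xlr and Slx-like genes, 10 were lower and 0 higher, and the 10 include Xlr3a, Xlr3b and Xlr3c, Xlr4a, Xlr4b and Xlr4c, and Xlr5a, Xlr5b and Xlr5c. Xlr3a was at 25.7, 34.7, 17.7 and 21.3 in the SSC lines and at 0.633 to 2.15 in the MASC lines (-3.60 ± 0.43, adjusted p = 0.00019), and 6 members were lower without the 3 lines. Of 21 Mage genes, 7 had a mean FPKM of at least 1, and 4 of the 21 were lower (19%, beside 10.7% of all genes). The lower count was 12 without SSC line 2, 10 without SSC line 4, 2 without SSC line 3 and 2 without the 3 lines together. Copies in the Rhox2, Xlr and Mage families are nearly identical, and the authors discarded reads with several mapping positions, so the split between copies is uncertain. Over the X chromosome as a whole, 80 of 505 genes with a mean FPKM of at least 1 were higher (15.8%) and 124 lower (24.6%), with a median log2 difference of -0.22. On chromosomes 1 to 19 the higher share was 8.7 to 15.8% and the lower share 11.2 to 22.5%.

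**Figure D4:**
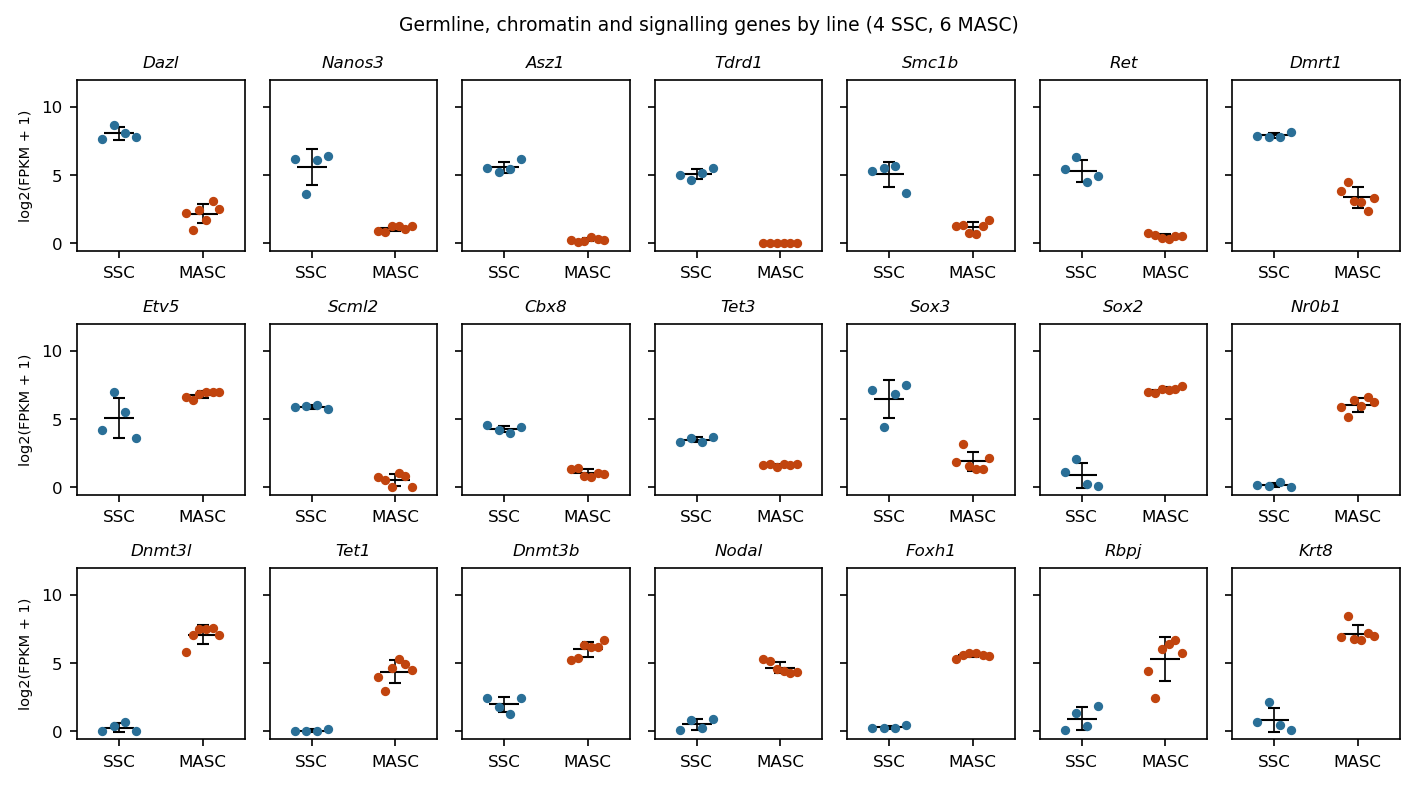
log2(FPKM + 1) of 21 germline, chromatin, signalling and epithelial genes in the 4 SSC lines (blue) and 6 MASC lines (orange); each point is 1 line, and the bar and whiskers are the mean and SD over lines. All genes but Etv5 separate the groups, and Rbpj, Etv5, Sox3 and Nanos3 vary most within 1 group.

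Most of the pluripotency network was higher. Of 26 transcription factors of this network, 20 were higher and 0 lower, all 26 had a positive difference, and the median log2 difference was 2.71. Without SSC line 1, 18 of them were higher. Sox2, the partner of Pou5f1 on DNA, was at 1.13, 3.13, 0.196 and 0.0455 FPKM in the SSC lines and at 120.5, 142 and 168 in the lowest, median and highest MASC lines (6.27 ± 0.34, adjusted p = 1.7e-06). Nr0b1, an X-linked orphan nuclear receptor, was at 0.277 or less in all SSC lines and at 33.6 to 96.4 in the MASC lines (5.88 ± 0.25, adjusted p = 3.8e-07). Klf5, a Krüppel-like factor, was at 1.6, 2.37, 3.55 and 6.64 in the SSC lines and at 52.2 to 102 in the MASC lines (4.30 ± 0.29, adjusted p = 6.0e-06). Some members already had a high level in SSC lines. Klf4 was at 25.0, 7.21, 50.1 and 21.8 in the SSC lines and at 30.7, 37.1 and 123 in the lowest, median and highest MASC lines, and was not called (1.13 ± 0.58, adjusted p = 0.19). Among 23 Dppa, Lin28 and other early embryonic genes, 13 were higher and 1, the piRNA gene Mael, was lower.

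Genes of DNA methylation moved in both directions. The list of 20 DNA methylation and Tet genes had a median log2 difference of -0.13, beside -0.15 over all expressed genes, with 6 members higher and 3 lower (5 lower without the 3 lines richest in fibroblast transcripts). The shares were 30% higher and 15% lower, beside 11.6% and 18.1% of expressed genes. Dnmt3l, the catalytically inactive partner of the de novo methyltransferases, was at 0.569 FPKM or less in the SSC lines and at 53.9, 156 and 189 in the lowest, median and highest MASC lines (6.82 ± 0.36, adjusted p = 1.4e-06). Dnmt3b, one of these methyltransferases, was at 4.44, 2.34, 1.42 and 4.39 in the SSC lines and at 35.9 to 100.1 in the MASC lines (4.02 ± 0.35, adjusted p = 2.7e-05). With its 9 transcripts summed the ranges were 7.93 to 16.6 and 69.6 to 193, a log2 difference of 3.19. Its relative Dnmt3a was not called (0.36 ± 0.19), nor were the maintenance methyltransferase Dnmt1 (-0.61 ± 0.19) and its cofactor Uhrf1 (-0.02 ± 0.30). The Tet enzymes, which oxidise methylated cytosine, differed in direction. Tet1 was at 0.130 or less in the SSC lines and at 6.72, 22.1 and 39.1 in the lowest, median and highest MASC lines (4.32 ± 0.42, adjusted p = 5.0e-05), and Tet2 rose by 2.74. Tet3 was at 8.87, 10.9, 9.12 and 12.1 in the SSC lines and at 1.81 to 2.28 in the MASC lines (-1.85 ± 0.08, adjusted p = 4.9e-07). Kdm1b, the demethylase needed for imprints in the oocyte, was at 24.9, 18.1, 15.6 and 18.2 and at 2.32 to 3.96 (-2.24 ± 0.15, adjusted p = 6.3e-06). Zfp57, which keeps imprints in the early embryo, was at 3.22 to 5.51 and at 67.9 to 119 (4.08 ± 0.23, adjusted p = 1.9e-06), and its cofactor Trim28 rose by 1.56.

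Polycomb repressive complex 1 (PRC1), which marks histone H2A at silent genes, changed in its subunits in both directions. Of 25 PRC1 and PRC1.6 genes, 7 were lower and 5 higher (3 higher without SSC line 3, and 6 lower and 7 higher with median centring). The shares as deposited were 28% lower and 20% higher, beside 18.1% and 11.6% of expressed genes. Scml2, an X-linked germline Polycomb protein, was at 56.9, 61.3, 64.4 and 51.8 FPKM in the SSC lines and at 1.10 or less in every MASC line (log2 difference -5.36 ± 0.22, adjusted p = 3.1e-07). The chromodomain proteins that bind K27me3 divided. Cbx8 was at 22.2, 17.0, 15.1 and 20.3 in the SSC lines and at 0.720 to 1.65 in the MASC lines (-3.22 ± 0.16, adjusted p = 8.7e-07), and Cbx2 fell by 2.21. Cbx7 was at 18.5, 14.7, 11.8 and 13.8 in the SSC lines and at 56.7 to 65.0 in the MASC lines (1.95 ± 0.10, adjusted p = 1.5e-06). Among the paralogous ring-finger subunits, Bmi1 and Pcgf5 fell by 1.96 and 2.77. Pcgf6, the subunit of PRC1.6, which represses germline genes in ESCs, was at 22.6, 19.5, 12.5 and 25.4 and at 27.7, 48.6 and 54.0 in the lowest, median and highest MASC lines (1.11 ± 0.23, adjusted p = 0.0047), and its call was lost in 4 of 22 alternatives. Max and L3mbtl2 of the same complex rose by 1.22 and 1.04, Mga was not called (-0.48 ± 0.20), and E2f6, at 15.7 to 23.5 in the SSC lines and 9.01 to 14.3 in the MASC lines, passed the p threshold but not the minimum difference (-0.68 ± 0.15, adjusted p = 0.0066). In the PRC2 list of 12 genes, the catalytic subunits differed in direction. Ezh1 fell by 2.04, and Ezh2 rose by 1.06 with overlap between the groups. The H3K9 methyltransferase Ehmt2 was at 104, 54.9, 50.1 and 75.9 in the SSC lines and at 17.1 to 26.6 in the MASC lines (-1.70 ± 0.23, adjusted p = 0.00041). With its 4 transcripts summed the ranges were 79.3 to 175 and 46.8 to 57.3.

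Among signalling pathways, Nodal and its components rose. Nodal is a TGF-β ligand of the early embryo that acts through Foxh1 and Smad2 and switches on its own inhibitors, Lefty1 and Lefty2. Of 20 Nodal and activin genes, 7 were higher and 1 lower. The ligand Nodal was at 0.0672, 0.752, 0.151 and 0.900 FPKM in the SSC lines and at 18.7 to 37.6 in the MASC lines (log2 difference 4.16 ± 0.26, adjusted p = 3.6e-06). Foxh1 was at 0.203, 0.167, 0.201 and 0.366 in the SSC lines and at 39.2, 47.2 and 53 in the lowest, median and highest MASC lines (5.28 ± 0.08, adjusted p = 9.9e-10). Lefty1 was at 0.584 or less and at 24.3 to 108 (5.21 ± 0.45, adjusted p = 2.7e-05), and Lefty2 rose by 4.39. The shared effectors Smad2, Smad3 and Smad4 did not reach the minimum difference. In the BMP branch the ligand Bmp4 rose by 3.53 and Bmp7 fell by 2.13. Of its 25 genes, 3 were higher (12%, beside 6.6% of all and 11.6% of expressed genes) and 5 lower (20%, beside 10.7% and 18.1%). Quantile normalization gave 4 and 4.

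Of 18 genes of the GDNF receptors and targets, 10 were lower and 2 higher. Egr4, an immediate early transcription factor of the same family as the GDNF targets Egr2 and Egr3, was at 177, 101, 183 and 193 FPKM in the SSC lines and at 0.200, 0.497 and 4.54 in the lowest, median and highest MASC lines (-6.38 ± 0.43, adjusted p = 5.5e-06). FGF and ERK genes rose more often, with 9 of 27 higher and 2 lower. None was lower without MASC line 3, 4 or 5 or without SSC line 3 or 4. With the replicate number or the strain as a block, 6 were higher and 0 lower. The feedback regulators Dusp4, Spry2 and Dusp6 rose by 2.77, 2.46 and 1.16, whereas the receptor Fgfr1 fell by 1.29 and Fgfr2 rose by 1.07. GDNF, bFGF and EGF were added to the SSC medium only.

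LIF was added to the MASC medium only. Of 24 LIF, Jak and Stat genes, 6 were higher and 7 lower in the MASC lines, and their median of -0.23 became 0.03 with median centring. The shares were 25% higher and 29.2% lower, beside 11.6% and 18.1% of expressed genes. The kinase Jak1 was at 66.3, 85.1, 69.9 and 66.7 FPKM in the SSC lines and at 10.5, 12.8 and 22.4 in the lowest, median and highest MASC lines (log2 difference -2.32 ± 0.18, adjusted p = 1.4e-05). Stat3, the transcription factor it activates, was at 46.4, 65.1, 41.8 and 57.7 and at 14.9 to 27.7 (-1.41 ± 0.18, adjusted p = 0.00031). Jak2 and Stat5a fell by 1.99 and 1.37, and Stat5b was at 5.76 to 8.97 in the SSC lines and at 1.56 to 3.73 in the MASC lines (adjusted p = 0.00098). The receptor subunits Lifr and Il6st were not called (0.37 ± 0.21 and -0.32 ± 0.19). Socs2, a feedback inhibitor of cytokine receptors, rose from 1.29 to 3.94 in the SSC lines to 22.7 to 42.9 in the MASC lines (3.30 ± 0.27, adjusted p = 1.6e-05).

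The insulin, Akt, FoxO and mTOR list had 13 of 40 genes lower and 2 higher, with a median of -0.57. Igf1r, the receptor for insulin-like growth factors, was at 21.7, 9.36, 17.7 and 15.4 FPKM in the SSC lines and at 1.62 to 4.10 in the MASC lines (log2 difference -2.11 ± 0.27, adjusted p = 0.00027). The kinase Mtor was at 34.0, 20.9, 24.2 and 29.4 and at 9.46 to 12.4 (-1.26 ± 0.16, adjusted p = 0.00024). Neither gene overlapped between the groups. Eif4ebp1, a repressor of translation that Mtor switches off, rose by 2.29.

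In the Wnt list the shares lay above those of all genes at 1 transcript per gene but near those of expressed genes. Of 63 Wnt genes, 42 had a mean FPKM of at least 1. Of the 63, 8 were higher (12.7%, beside 6.6% of all and 11.6% of expressed genes). The 12 lower genes were 19%, beside 10.7% and 18.1%. The higher count was 5 without SSC line 1, and 5 without the 3 lines richest in fibroblast transcripts. The secreted Wnt agonist Rspo4 was at 23.2, 6.54, 13.5 and 18.9 FPKM in the SSC lines and at 0.0414, 0.126 and 1.29 in the lowest, median and highest MASC lines (log2 difference -3.59 ± 0.34, adjusted p = 4.2e-05), and the secreted antagonist Wif1 was at 4.28, 10.9, 2.93 and 5.22 and at 0.336 or less (-2.46 ± 0.26, adjusted p = 7.9e-05). The target genes Axin2, Nkd1 and Tcf7 fell by 1.25, 1.65 and 1.76. Of 26 Notch genes, 7 were lower and 4 higher, a balance that turned to 4 lower and 6 higher both with median centring and with quantile normalization. The shares as deposited were 26.9% lower and 15.4% higher, beside 18.1% and 11.6% of expressed genes. The Notch targets Hey1 and Hes5 fell by 2.56 and 2.10. The Rbpj transcript NM_001080928, which encodes the DNA-binding partner of Notch, rose from 0.0415, 1.58, 0.307 and 2.56 FPKM in the SSC lines to 4.52, 59.4 and 104 in the lowest, median and highest MASC lines (4.39 ± 0.82, adjusted p = 0.0027). Its call was lost without the 3 lines, and with the 4 Rbpj transcripts summed the gene was at 27.5 to 41.0 in the SSC lines and 72.1 to 123 in the MASC lines, a log2 difference of 1.32.

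Epithelial genes were higher. Of 61 genes of junctions and keratins, 23 were higher and 2 lower (4 lower without the 3 lines richest in fibroblast transcripts). Krt8, a keratin of simple epithelia and the early embryo, was at 0.601, 3.37, 0.348 and 0.0442 FPKM in the SSC lines and at 104, 122 and 339 in the lowest, median and highest MASC lines (log2 difference 6.33 ± 0.44, adjusted p = 7.1e-06), and its partner Krt18 rose by 4.43. Of the claudins, which seal tight junctions, Cldn4, Cldn6, Cldn7 and Cldn9 rose and the others in the list were not called. Cldn4 was at 0.523, 2.03, 1.51 and 0.795 in the SSC lines and at 73.9 to 209 in the MASC lines (5.70 ± 0.33, adjusted p = 2.3e-06), Cldn6 was at 1.07, 8.16, 0.478 and 4.31 and at 43.0 to 104 (4.28 ± 0.48, adjusted p = 0.00012), and Cldn7 rose by 4.22. Another protein of the same junctions went the other way. Occludin (Ocln) was at 17.1, 10.5, 14.5 and 42.7 in the SSC lines and at 2.03 to 4.46 in the MASC lines (-2.21 ± 0.34, adjusted p = 0.00081), and its relative Marveld2 fell by 1.98. Of 22 basement membrane genes, 5 were higher and 0 lower. Lama1, the laminin chain of the early embryo, was at 1.70, 0.632, 1.74 and 1.29 in the SSC lines and at 2.97, 18.3 and 36.0 in the lowest, median and highest MASC lines (2.72 ± 0.65, adjusted p = 0.011), a call that was lost without the 3 lines richest in fibroblast transcripts. Fibrillar collagens and other fibroblast matrix genes had 1 member lower and 0 higher of 22.

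Glycolysis rose at many of its steps, with 10 of 30 genes higher (16 with median centring) and 5 lower and a median of 0.77. The shares were 33.3% higher and 16.7% lower, beside 11.6% and 18.1% of expressed genes. The 5 lower genes were 3 without any 1 of MASC lines 3 to 6 or SSC lines 1, 3 or 4, and 2 without the 3 lines richest in fibroblast transcripts. Paralogous enzymes moved in opposite directions at the first step. Hk2, the hexokinase of growing cells, was at 3.66, 6.70, 11.2 and 4.71 FPKM in the SSC lines and at 29.8 to 59.4 in the MASC lines (log2 difference 2.74 ± 0.28, adjusted p = 6.3e-05). Hk1, the hexokinase of most adult tissues, was at 43.7, 14.6, 30.9 and 26.7 and at 5.79, 8.65 and 19.4 in the lowest, median and highest MASC lines, with an overlap (-1.37 ± 0.42, adjusted p = 0.035), and its call was lost in 12 of 22 alternatives. Similarly the aldolase Aldoa rose by 1.88 and Aldoc fell by 1.92, also with an overlap for Aldoc. Further along, the X-linked Pgk1 was at 47.4, 35.1, 146 and 27.5 in the SSC lines and at 219 to 605 in the MASC lines (2.74 ± 0.45, adjusted p = 0.0013), and Gapdh, Pkm and Ldha rose by 1.78, 1.62 and 1.85. The lactate dehydrogenase Ldhb was at 18.9, 3.69, 23.7 and 4.15 and at 65.7 to 163 (3.23 ± 0.52, adjusted p = 0.0011).

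In mitochondria the changes were smaller. Of 78 subunits of oxidative phosphorylation, 9 were higher (11.5%, beside the 11.6% of all expressed genes) and 3 lower, and their median of 0.24 became -0.06 with quantile normalization. Quantile normalization gave 3 higher and 6 lower, and median centring 18 and 2. In the pyruvate dehydrogenase and tricarboxylic acid list, 5 of 30 genes were higher (16.7%, beside 11.6% of all expressed genes) and 3 lower (10%, beside 18.1%). The isocitrate dehydrogenase Idh2 was at 4.24, 8.06, 4.54 and 5.79 FPKM in the SSC lines and at 49.2, 67.7 and 112 in the lowest, median and highest MASC lines (log2 difference 3.40 ± 0.27, adjusted p = 1.5e-05), and pyruvate carboxylase (Pcx) fell by 2.33.

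Serine, glycine, threonine and one-carbon enzymes, which supply methyl groups and nucleotides, had 10 of 33 members higher and 1 lower. Threonine dehydrogenase (Tdh), on which mouse ESCs rely for one-carbon units, was at 5.02, 0.0316, 0.944 and 0.704 FPKM in the SSC lines and at 95.3, 155 and 181 in the lowest, median and highest MASC lines (6.11 ± 0.43, adjusted p = 7.3e-06). The glycine cleavage enzymes Amt and Gldc, which take the product onward, rose by 3.78 and 2.21. Cth, which makes cysteine from cystathionine, was at 2.49, 2.78, 2.83 and 1.46 and at 34.8 to 68.9 (4.01 ± 0.20, adjusted p = 1.0e-06). Methionine synthase (Mtr) was the 1 member that fell, from 89.8, 27.3, 51.1 and 83.5 in the SSC lines to 6.53 to 11.6 in the MASC lines (-2.41 ± 0.31, adjusted p = 0.00029). The first enzyme of serine synthesis, Phgdh, was not called (-0.67 ± 0.27). Of 28 genes of nucleotide synthesis, 7 were higher (13 with median centring) and 0 lower. Rrm2, the small subunit of ribonucleotide reductase, was at 8.90, 67.3, 16.8 and 11 in the SSC lines and at 166 to 193 in the MASC lines (3.16 ± 0.47, adjusted p = 0.00066).

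Lipid genes were divided. Of 32 cholesterol genes, 8 were lower (5 without SSC line 1, 5 without SSC line 3 and 4 without the 3 lines together) and 2 higher. The lower share was 25%, beside 10.7% of all and 18.1% of expressed genes. The higher share was 6.25%, beside 6.6% and 11.6%. With median centring 3 were lower and 3 higher, and with the replicate number or the strain as a block 3 were lower. The cholesterol exporter Abca1 was at 16.6, 5.74, 13.5 and 17.6 FPKM in the SSC lines and at 0.718 to 1.79 in the MASC lines (log2 difference -2.57 ± 0.27, adjusted p = 8.8e-05), and Abcg1, a second exporter, fell by 2.71. Of 38 fatty acid genes, 6 were higher (15.8%, beside 6.6% of all and 11.6% of expressed genes) and 8 lower (21.1%, beside 10.7% and 18.1%). With median centring 4 were lower. Acss2, which turns acetate into acetyl-CoA, was at 24.9, 18.4, 28.5 and 17.5 and at 1.81 to 4.51 (-2.65 ± 0.23, adjusted p = 2.8e-05). Fabp3, a fatty acid carrier, rose from 12.3, 8.50, 12.3 and 16.4 to between 182 and 413 (4.33 ± 0.26, adjusted p = 3.0e-06).

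**Figure D5:**
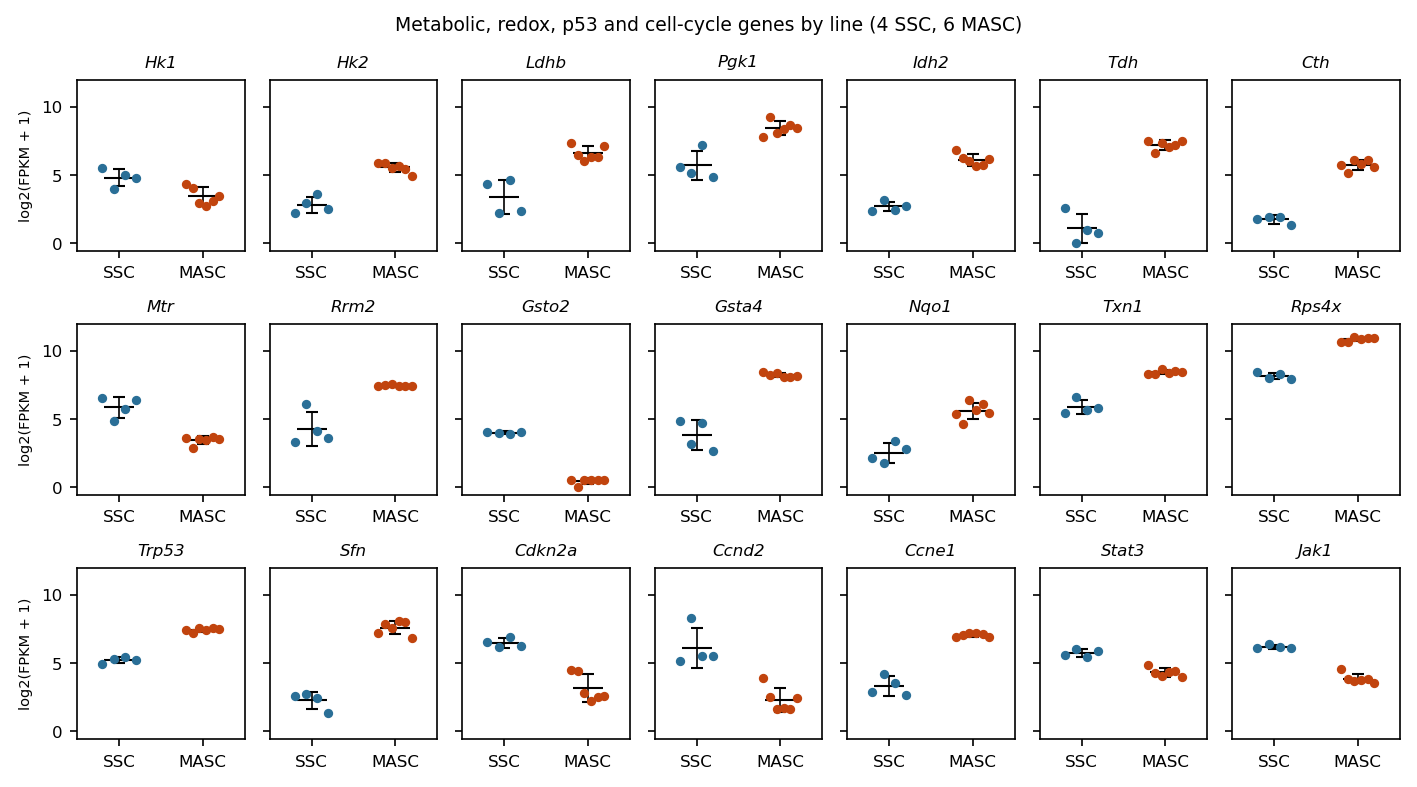
log2(FPKM + 1) of 21 metabolic, redox, ribosomal, p53, cell-cycle and Jak-Stat genes in the 4 SSC lines (blue) and 6 MASC lines (orange); each point is 1 line, and the bar and whiskers are the mean and SD over lines. Hk1 overlaps between the groups while Hk2 does not, Trp53 and Rps4x differ with little spread, and 1 SSC line lies far above the others for Ccnd2.

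Glutathione and redox genes had 21 of 56 members higher and 7 lower, with a median of 0.71. The shares were 37.5% higher and 12.5% lower, beside 11.6% and 18.1% of expressed genes. Thioredoxin (Txn1) was at 42.2, 97.6, 50.2 and 54.3 FPKM in the SSC lines and at 312, 339.7 and 406 in the lowest, median and highest MASC lines (log2 difference 2.56 ± 0.20, adjusted p = 1.3e-05), and its reductase Txnrd1 rose by 1.96. Nqo1, a quinone reductase and a standard target of the stress-response factor Nfe2l2, was at 3.31, 2.45, 9.27 and 5.92 and at 23.7 to 84.1 (3.08 ± 0.41, adjusted p = 0.00035). Among other known targets of that factor, named after their values were seen and not tested as a group, Srxn1 rose by 2.28, Slc7a11 by 1.87, Hmox1 by 1.41 and Gclm by 1.15, the last 2 with an overlap of the groups, while glutathione reductase (Gsr) was lower by less than the minimum difference (-0.75 ± 0.22, adjusted p = 0.024). Nfe2l2 itself was at 21.1 to 36.9 in the SSC lines and 37 to 54.9 in the MASC lines, below the minimum difference (0.64 ± 0.18, adjusted p = 0.02), and its inhibitor Keap1 was not called (-0.26 ± 0.12). Glutathione transferases went both ways. Gsta4 was at 28.1, 8.01, 25.3 and 5.41 in the SSC lines and at 270.0 to 339 in the MASC lines (4.36 ± 0.40, adjusted p = 3.8e-05), whereas Gsto2 was at 15.6, 15.1, 13.6 and 15.9 and at 0.457 or less (-3.56 ± 0.13, adjusted p = 1.5e-07) and Gstm5 fell by 3.48.

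Counts for the translation machinery depended on the scaling. Of 86 cytosolic ribosomal proteins, 15 were higher and 1 lower, with a median log2 difference of 0.67 that became -0.06 over expressed members with quantile normalization. With quantile normalization 4 were higher and 2 lower, and with median centring 36 and 0. Without SSC line 1, 24 members were higher, and without the 3 lines richest in fibroblast transcripts 43 were. The X-linked Rps4x was at 345, 261, 312 and 244 FPKM in the SSC lines and at 1623, 1879 and 2039 in the lowest, median and highest MASC lines (2.66 ± 0.12, adjusted p = 5.4e-07), and Rpl10, also on the X chromosome, rose by 1.95. Of 55 initiation and elongation factors, 15 were higher (25 with median centring) and 2 lower, and of 22 tRNA synthetases 8 were higher and 0 lower. Eif2s3x and Eif2s2, subunits of the factor that brings in the initiator tRNA, rose by 2.43 and 2.14. The germline paralogue of eIF5A moved against its better known relative. Eif5a2 was at 20.6, 26.7, 21.3 and 25.5 in the SSC lines and at 1.79 to 4.15 in the MASC lines (-2.62 ± 0.21, adjusted p = 1.7e-05), while Eif5a rose by 1.24. Among chaperones, the small heat shock protein Hspb1 was at 11.6, 34.9, 16.3 and 11.4 and at 494 to 890.1 (5.30 ± 0.30, adjusted p = 2.2e-06), and the testis-enriched Hspa4l and Hspa2 fell by 2.88 and 1.98.

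The p53 family and its targets had 12 of 30 members higher and 2 lower, with a median of 0.89. Trp53, which encodes p53, was at 28.9, 39.1, 42.1 and 35.4 FPKM in the SSC lines and at 144 to 192 in the MASC lines (log2 difference 2.24 ± 0.11, adjusted p = 1.1e-06). The targets Sfn, an epithelial 14-3-3 protein, and Perp, a desmosome protein, showed the largest differences. Sfn was at 5.04, 5.51, 4.33 and 1.47 and at 112, 211 and 274 in the lowest, median and highest MASC lines (5.33 ± 0.34, adjusted p = 4.2e-06), and Perp rose by 3.86. Both are also epithelial genes. The classical targets Cdkn1a, a cell-cycle inhibitor, and Mdm2, the ligase that degrades p53, were not called (0.58 ± 0.42 and -0.04 ± 0.27). Of the Bcl2 family and caspases, 7 of 31 were higher (22.6%, beside 6.6% of all and 11.6% of expressed genes). The 5 lower ones were 16.1%, beside 10.7% and 18.1%. The pore-forming Bak1 was at 2.04, 0.530, 3.98 and 1.37 and at 24.3 to 36.8 (3.49 ± 0.28, adjusted p = 1.6e-05).

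Of 35 cyclins, their kinases and inhibitors, 32 had a mean FPKM of at least 1. Of the 35, 6 were higher (17.1%, beside 11.6% of all expressed genes) and 7 lower (20%, beside 18.1%). With median centring 7 were higher and 5 lower, and with quantile normalization 5 and 5. Ccne1, the cyclin of entry into S phase, was at 6.36, 17.6, 10.8 and 5.28 FPKM in the SSC lines and at 116, 137 and 148 in the lowest, median and highest MASC lines (log2 difference 3.74 ± 0.27, adjusted p = 7.6e-06). Ccnd2, a D-type cyclin of SSCs, was at 34.6, 310.1, 44.6 and 45.3, so that SSC line 2 was far above the others, and at 2.06 to 13.7 in the MASC lines (-3.82 ± 0.72, adjusted p = 0.0028), a call that was lost with the replicate number as a block. Cdkn2a, the locus of the inhibitors p16 and p19, was at 94.1, 69.5, 121 and 76.5 in the SSC lines and at 3.57 to 21.4 in the MASC lines (-3.32 ± 0.49, adjusted p = 0.00066). The MEF sample was at 70.8. Of 45 DNA replication genes 7 were higher (11 with median centring) and 0 lower. The higher share was 15.6%, beside 11.6% of all expressed genes, of which 18.1% were lower.

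Developmental regulators showed no single direction. Of 39 Hox genes, 12 were lower and 0 higher. Hoxb7 was at 25.2, 32.2, 5.96 and 30.8 FPKM in the SSC lines and at 0.147 to 1.37 in the MASC lines (log2 difference -3.77 ± 0.43, adjusted p = 0.00014), and Hoxb8 and Hoxb13 fell by 3.19 and 2.85. Apart from Sox2, 6 of 19 Sox genes were higher (2 without the 3 lines richest in fibroblast transcripts) and 4 lower (2 with quantile normalization). The shares were 31.6% higher and 21.1% lower, beside 11.6% and 18.1% of expressed genes. Sox3, the X-linked relative of Sox2 that is needed in spermatogonia, was at 137, 20.7, 112 and 175 in the SSC lines and at 1.5, 2.33 and 8.09 in the lowest, median and highest MASC lines (-4.54 ± 0.60, adjusted p = 0.00036). Sox2 and Sox3, which share a subfamily, thus moved in opposite directions in the same lines. The neural regulator Lhx2 was at 12.2, 29.1, 7.13 and 10.2 and at 0.617 or less (-3.39 ± 0.31, adjusted p = 3.3e-05), while Zic2 and Otx2 rose by 2.86 and 2.40. Imprinted genes had 6 of 55 higher (10.9%, beside 6.6% of all and 11.6% of expressed genes) and 5 lower (9.09%, beside 10.7% and 18.1%). With median centring 10 were higher. Snrpn, expressed from the paternal allele, was at 9.47, 13.3, 10.1 and 6.93 and at 47.6 to 170.2 (3.14 ± 0.31, adjusted p = 5.5e-05), Impact and Peg10 rose by 2.88 and 2.24, and H19 and Igf2 were not called and spread widely within both groups, H19 from 1.09 to 294 in the SSC lines and from 3.17 to 361 in the MASC lines. Of 29 genes of MHC class I and antigen processing, 3 were lower (10.3%, beside 10.7% of all and 18.1% of expressed genes) and 0 higher. The lower count was 9 without MASC line 1, 5 without SSC line 2 and 8 without the 3 lines richest in fibroblast transcripts.

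Long noncoding transcripts included some of the sharpest differences. 2410007B07Rik (chr3:75451363-75459653 in mm9) was at 0.131, 0.107, 0.157 and 0.341 FPKM in the SSC lines and at 28.7, 40.9 and 54.6 in the lowest, median and highest MASC lines (log2 difference 5.11 ± 0.15, adjusted p = 3.0e-08). Apela, annotated in RefSeq as noncoding in these files although its transcript encodes the peptide ELABELA, was at 0.164, 3.77, 0.134 and 0.336 and at 16.4 to 32.2 (3.88 ± 0.41, adjusted p = 8.5e-05). In the other direction Chd3os (chr11:69154271-69156149 in mm9) was at 45.0, 22.7, 31.1 and 44.0 in the SSC lines and at 1.05 to 2.25 in the MASC lines (-3.80 ± 0.21, adjusted p = 1.9e-06). The strand of the libraries was not given in the sources used here, so its reads cannot be told apart from those of an overlapping gene.

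Among 4803 genes with several transcripts, 43 had 1 transcript called higher and another called lower. Ccnd3, a D-type cyclin, was such a gene and its transcripts start far apart on chromosome 17. The transcript that spans chr17:47730416-47736637 in mm9 was at 31.4, 18, 37.9 and 18.9 FPKM in the SSC lines and at 97, 123 and 182 in the lowest, median and highest MASC lines (2.28 ± 0.27, adjusted p = 0.00017). The one from chr17:47642000-47736637 was at 17.4, 3.34, 19 and 12.9 in the SSC lines and at 1.43 or less in the MASC lines (-3.17 ± 0.45, adjusted p = 0.00052). Hmga1, a chromatin protein of dividing cells, has several transcripts with the same ends. NM_001166543 rose from 8.76, 15, 4.78 and 13 to between 41.7 and 60.9 (2.23 ± 0.26, adjusted p = 0.00015), and NM_001166544 was at 7.64, 7.10, 10.8 and 13.4 in the SSC lines and near 0 in all MASC lines (-3.38 ± 0.14, adjusted p = 3.4e-07). Ddx19b, Immt, Zfp207 and Jade1 showed the same kind of exchange. Cufflinks divides shared reads between transcripts by a model, so the level of 1 transcript is less certain than that of its gene.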

How the data were processed

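RNA was extracted with an RNeasy kit and libraries were made by the TruSeq protocol. The authors aligned reads to mm9 with TopHat2 2.0.11 and quantified RefSeq transcripts with Cufflinks (submitters' processing notes), leaving out multi-mapping reads and PCR duplicates, and deposited FPKM values per transcript. The paper gives upper-quartile and GC normalization as settings of the Cufflinks step. The deposited coverage column (reads per base) was used only to gauge depth. The files hold no read counts. From there, all 32661 NM_ and NR_ transcripts were tested without a filter as log2(FPKM + 1) with limma 3.58.1 in R 4.3.3, over the 12 MASC, SSC and ESC lines, with Benjamini-Hochberg adjustment. Summaries used Python 3.11.15. On simulated data with 100 transcripts changed per size, the fit recovered 77% at a log2 change of 1.5 and 91% at 3, with 1 false call. Far fewer transcripts were changed there than the 1972 higher and 3137 lower ones called in the lines. The simulation therefore checks only that the fit runs as intended. It does not measure the share of true changes found, or of false calls, among the real calls.

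Gene lists and members were chosen with earlier results of these data known. Named genes are, per list, up to 3 called members per direction with the largest difference, the 15 coding and 8 noncoding transcripts per direction with the largest difference and no overlap, cell type markers, and the 6 genes with the strongest opposed transcripts. Further members were named for their role, after their values were seen. Replicate numbers are not stated to pair the lines. Residuals of the 4 same-numbered pairs of SSC and MASC lines correlated at -0.27 to 0.24, and those of the 20 other pairs at -0.37 to 0.37. The residuals were centred within each group and the pairs are few, so these values cannot decide whether the lines are paired. The iPS and haematopoietic samples were not used. Some members of the lists are counted but not reported by name here.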

Additional observations from a re-analysis of the deposited data

Results flagged for a closer look

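Of 200 groups of 4 or 6 lines examined, 20 held a line further from the others than Dixon's 95% criterion allows, while chance gives about 1 in 20 groups. Values are log2(FPKM + 1), with the range of the other lines of the group after them.

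In SSC line 2, Ccnd2 was at 8.281 (5.153 to 5.533), Egr4 at 6.674 (7.479 to 7.6) and Nanos3 at 3.577 (6.071 to 6.412). In the same line the summed FPKM of endothelial markers was 23.74 (3.839 to 4.627) and that of macrophage and blood markers 228.2 (4.945 to 27.53). In SSC line 1, H2-Q7, an MHC class I gene, was at 0.4123 (4.427 to 5.173), and the summed FPKM of pluripotency markers was 177.8 (68.41 to 85.15). Hoxb7 was at 2.8 in SSC line 3 (4.714 to 5.052). In SSC line 4, Dmrt1 was at 8.168 (7.807 to 7.857) and Tet1 at 0.1759 (0.0003815 to 0.0005599).

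In MASC line 1, Dnmt3l was at 5.779 (7.054 to 7.567), Jak1 at 4.546 (3.526 to 3.846), Rspo4 at 1.195 (0.05855 to 0.3461) and Ifitm3, an interferon-induced membrane protein, at 9.74 (8.139 to 8.372). Its summed FPKM of fibroblast markers was 1887 (46.82 to 284.9). In MASC line 2, Krt8 was at 8.41 (6.71 to 7.199), Mtr at 2.912 (3.464 to 3.651), Cbx7 at 6.045 (5.849 to 5.916) and Gsto2 at 0.000217 (0.5158 to 0.5425). Rrm2 was at 7.601 in MASC line 3 (7.386 to 7.465).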

How the results depend on the processing

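The 1972 higher and 3137 lower transcripts became 565 and 697 with a log2 difference of at least 2, 3739 and 6360 with no minimum difference, and 167 and 232 within the Oct4-GFP strain (2 lines against 2). Median centring gave 3061 higher, and a pseudocount of 0.1 gave 4723 lower. The other alternatives kept both counts within 1.5 times, and leaving out 1 line gave 1811 to 2012 higher and 2954 to 3232 lower. With the replicate number as a block (replicate block) 1444 were higher and 2387 lower. The numbers are not stated to pair the lines. In alternatives chosen after seeing the data, 1851 and 3213 were called without the 3 lines highest in fibroblast transcripts, and 1950 and 3128 for transcripts of at least 200 bases. Of 353 called named transcripts, 67 calls were lost with the replicate block, 46 with the strain as a block, 314 within the Oct4-GFP strain and 9 to 28 without 1 line, and 0 changed direction. Medians changed sign within the Oct4-GFP strain for fibrillar collagens (1.80), fibroblast markers (1.72) and macrophage markers (-0.71), and, among lists with a median of at least 0.5 in size, with quantile normalization for cytosolic ribosomal proteins (-0.058). With smaller medians included, 11 of 71 lists turned sign with median centring and 10 with quantile normalization, among them Notch, cholesterol, oxidative phosphorylation, chaperones and LIF, Jak and Stat. The cause was not tested, and 2 lines against 2 leave little room for calls. Low transcripts rest on few reads.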
